A study of Homo sapiens with 4 samples.

Results

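Long intergenic noncoding RNAs are transcripts that lie between protein-coding genes and are not translated into a known protein. Their levels were compared between A549 cells with a knockdown of PSME4 and control A549 cells. The set held 177 genes of the 15037 in the count table. It was made of the 175 rows whose symbol begins with LINC and a digit and whose counts sum to at least 40 over the 4 libraries, plus MALAT1 and NEAT1. Another 90 LINC rows fell below that sum. The LINC genes were thus selected on their summed count, and a gene could reach it mainly through 1 group. Of the 47 genes with a sum under 80, 2 had under 10 counts in 1 group and reached the sum through the other: LINC01322, with 9 counts in PSME4 KD and 38 in control KD, and LINC01876, with 34 and 8. LINC01778 and LINC01232 were just inside it with 40 counts each, and LINC00471 and LINC00607 just outside with 39.

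Both groups were A549 cells, a human line of lung carcinoma, grown in DMEM. PSME4 KD was the knockdown of PSME4, which encodes an activator of the proteasome, and control KD carried a knockdown directed at RFP. Each group had 2 libraries, made from RNA captured on poly(A) beads. The labels do not say how the knockdown was made, how long it lasted, or whether a group's libraries were grown as separate cultures. The p-values therefore rest on the spread between 2 libraries a group, which the fit shares over genes, and that spread may be technical. An SE given below is thus not the scatter of that gene's own libraries alone. The table held 15208588 and 14845701 counts in PSME4 KD 1 and 2, and 11766371 and 11769392 counts in control KD 1 and 2.

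PSME4 itself stood at 75.3 and 85.1 CPM (counts scaled to library size, with TMM factors) in the PSME4 KD libraries, against 158 and 180.3 CPM in the control KD libraries. Its log2 fold change was −1.08 (SE 0.20, adjusted p = 0.000855, edgeR). All 8 epithelial markers looked for were in the table. Their summed level, most of it KRT18, was 4697 to 5769 CPM in PSME4 KD and 4083 to 5061 CPM in control KD. CLDN2 rose (log2 fold change 1.25, adjusted p = 0.000301, edgeR) and CLDN1 fell (−1.24, adjusted p = 0.000174, edgeR), while the other epithelial markers did not pass. The lowest were KRT19 (1.71 to 3.78 CPM) and EPCAM (5.42 to 7.88 CPM). Of the markers of other cell types, 3 of 5 leukocyte genes (39.3 to 39.4 CPM in sum in PSME4 KD and 29.1 to 33.8 CPM in control KD), 1 of 4 endothelial genes (9.06 to 12.1 and 10.7 to 13.2 CPM), 3 of 6 fibroblast genes (26.4 to 28.6 and 17.2 to 21.2 CPM) and 0 of 3 erythroid genes had a row. The defining markers PTPRC, PECAM1 and HBB had none. The summed leukocyte and fibroblast markers were higher in both PSME4 KD libraries. Most of the leukocyte sum was CD68, at 32.1 and 33.5 CPM in PSME4 KD, against 28.5 and 23.7 CPM in control KD. Neither CD68 nor CD14, the 2 leukocyte markers tested, passed. Of the fibroblast markers, however, COL1A1 rose (log2 fold change 0.73, adjusted p = 0.0479, edgeR) and PDGFRA fell (−1.34, adjusted p = 0.0453, edgeR). The part of these markers in the results was not tested.

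Noncoding RNAs of this kind work as RNA. Some hold nuclear bodies together, some act on the gene next to them as they are transcribed, and many have no known role. They are usually present at low levels and differ sharply between cell types, and MALAT1 was first described in lung cancer. PSME4 has been studied chiefly in protein breakdown in the nucleus and in the display of antigens by tumour cells.

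MALAT1 is kept in the nucleus at nuclear speckles and lacks a poly(A) tail. Its 3′ end is cut by RNase P, and it is protected there by a triple helix of U-rich motifs and an A-rich tract encoded in the gene. That stretch is shown because it takes the place of a poly(A) tail, and these libraries were made from RNA captured on poly(A) beads. It lies at chr11:65506019-65506116 on the plus strand of GRCh38, taken from the longest GENCODE 29 transcript (8708 bases), 353 bases before the end of that transcript model. Capitals mark the 2 U-rich motifs and the A-rich tract, each of which occurs 1 time in the transcript, and T stands for U.
MALAT1 3′ stretch: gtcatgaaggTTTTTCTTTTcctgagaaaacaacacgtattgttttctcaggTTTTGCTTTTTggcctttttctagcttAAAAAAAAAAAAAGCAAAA

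Promoter windows are shown for 4 LINC genes that the results turn on. They are the largest decrease (LINC01322), the largest increase (LINC02735), a gene whose start lies 137 bases from that of a protein-coding gene on the opposite strand (LINC01137), and the called LINC gene with the most counts (LINC01578). Each window runs from 250 bases before to 50 after the RefSeq start on GRCh38.p14, and reads 5′ to 3′ along the gene. Capitals mark TATAAA, the letters of a TATA box core, in LINC01322, LINC02735 and LINC01137, on either strand. They also mark GGGCGG, the core of a GC box, in LINC01137 and LINC01578, on either strand. Each TATAAA match lies well upstream of the start of the LINC gene. In LINC02735 and LINC01137 it reads on the opposite strand, and in LINC01137 it lies between that start and the start of the protein-coding gene.
LINC01322 (chr3:165206698-165206997, plus strand): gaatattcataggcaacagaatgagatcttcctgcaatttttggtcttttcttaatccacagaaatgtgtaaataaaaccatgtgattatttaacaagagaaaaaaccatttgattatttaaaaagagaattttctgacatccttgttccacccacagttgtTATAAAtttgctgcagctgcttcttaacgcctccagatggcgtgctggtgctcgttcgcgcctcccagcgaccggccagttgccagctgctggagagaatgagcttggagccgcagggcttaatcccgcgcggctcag
LINC02735 (chr11:56848228-56848527, plus strand): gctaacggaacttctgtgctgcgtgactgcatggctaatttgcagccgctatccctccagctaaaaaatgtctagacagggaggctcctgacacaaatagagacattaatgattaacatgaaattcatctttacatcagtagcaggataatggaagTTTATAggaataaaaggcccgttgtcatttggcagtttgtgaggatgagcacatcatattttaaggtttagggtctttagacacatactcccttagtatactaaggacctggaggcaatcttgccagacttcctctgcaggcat
LINC01137 (chr1:37474394-37474693, minus strand): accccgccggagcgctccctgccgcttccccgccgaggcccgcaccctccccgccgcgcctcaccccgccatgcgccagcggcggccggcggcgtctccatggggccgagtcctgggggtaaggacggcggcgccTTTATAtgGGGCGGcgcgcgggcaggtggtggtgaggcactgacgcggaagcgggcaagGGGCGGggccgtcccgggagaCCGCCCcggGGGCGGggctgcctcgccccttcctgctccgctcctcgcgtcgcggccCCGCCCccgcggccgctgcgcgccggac
LINC01578 (chr15:92882593-92882892, plus strand): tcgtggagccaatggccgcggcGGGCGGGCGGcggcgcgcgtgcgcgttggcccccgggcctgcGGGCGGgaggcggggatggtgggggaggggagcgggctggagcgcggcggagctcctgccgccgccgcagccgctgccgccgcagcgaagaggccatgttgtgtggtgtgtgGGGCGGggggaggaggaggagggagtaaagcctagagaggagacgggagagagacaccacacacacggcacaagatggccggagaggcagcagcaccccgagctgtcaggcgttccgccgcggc

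RefSeq promoter windows were held for 127 of the 177 genes, and a gene with several windows counted as holding a motif where any of them did. Such a gene had more chances of a match, so the shares of genes and of windows below are not like for like. TATAAA was found, on either strand, in 21 of these 127 (16.5%), and in 11.5% of all 35097 windows. GGGCGG was found in 58 of the 127 (45.7%), and in 44.9% of all windows. Of the 16 genes past the test (below) that had a window, 5 held TATAAA and 6 held GGGCGG, with LINC01137 and MALAT1 holding both. The cAMP response element TGACGTCA was in 3 of the 127 genes (2.36%, and 1.85% of all) and in 0 of the 16. The AP-1 site TGANTCA was in 11 of the 127 (8.66%, and 7.71% of all) and in 2 of the 16, LINC01061 and LINC02657. A match is a run of letters in these windows and not a shown binding site.

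Across the set, 11 genes rose and 12 fell in PSME4 KD cells, and 152 did not pass. Calls are those of edgeR (quasi-likelihood test) at an adjusted p under 0.05, with p-values adjusted by Benjamini-Hochberg across 13497 tested genes; 175 of the 177 passed the filter on low counts. The exceptions were LINC00623 and LINC01232. Of all genes tested 10.6% passed, 4.56% as higher and 6.00% as lower, beside 13.1% of the noncoding set. The median log2 fold change (PSME4 KD over control KD, as all below) was 0.04 over the noncoding RNAs and −0.0021 over all genes. At an unadjusted p under 0.05 there were 47 noncoding RNAs, where 26.2% of all genes tested passed. Both PSME4 KD libraries lay above both control KD libraries in CPM for 48 noncoding RNAs and below them for 45 (27.4% and 25.7%), beside 26.7% and 28.4% of all genes tested, or 55.0% in either direction. In bulk RNA, fewer cells of a kind and less RNA per cell cannot be told apart.

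Other tools called fewer of them. DESeq2 gave 3 higher and 5 lower of the 88 noncoding RNAs for which it returned an adjusted p, where 9.54% of all genes with one passed, 4.09% as higher and 5.45% as lower. Those 8 genes were all among the 23. By limma voom 11 were higher and 10 lower, of which 20 were among the 23, beside 10.3% of all genes, 4.39% as higher and 5.93% as lower; LINC00680, LINC02212 and LINC02604 lost their call.

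The noncoding RNAs had few reads. Their median mean level was 2.60 CPM, against 20.6 CPM over all genes tested, and their median standard error on the log2 scale was 0.38, against 0.23. Among the 107 with a mean under 5 CPM, 7 rose and 7 fell, 13.1%, where 6.82% of the 3184 genes tested at that level passed. Among the 68 with a mean of at least 5 CPM, 4 rose and 5 fell, 13.2%, where 11.7% of all genes at that level passed. Of the 23 genes past the threshold, 14 had a mean under 5 CPM, and 17 of the 23 differed at least 2-fold, 9 higher and 8 lower. With standard errors of this size mostly large differences can pass, and the share of all called genes that differed as much was not counted.

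**Figure D1:**
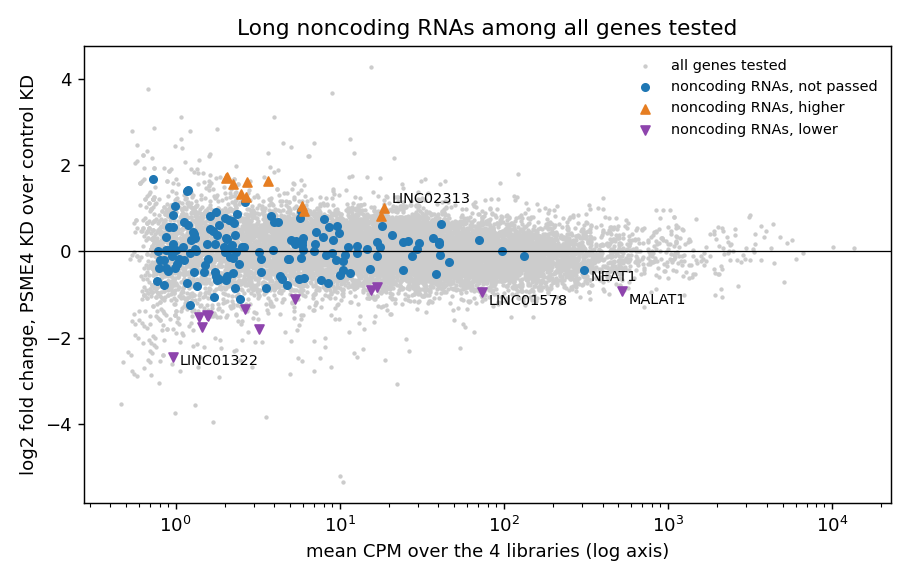
Log2 fold change of PSME4 KD over control KD against the mean CPM of the 4 libraries (log axis) for all 13497 genes tested (grey) and the 175 noncoding RNAs tested (blue where they did not pass, orange triangles where higher, purple triangles where lower). Most noncoding RNAs lie at the left, and the 11 higher and 12 lower ones lie within the range of all genes, between −2.44 and 1.72.

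With 1 library left out, almost every call was lost. Leaving out control KD 1, edgeR called 0 noncoding RNAs and 53 genes in all. Leaving out control KD 2, it called 1 (LINC01578) and 94. The fit that omitted PSME4 KD 1 called 0 and 43, and the one that omitted PSME4 KD 2 called 3 (LINC01322, MALAT1 and NEAT1) and 281. All 23 genes past the threshold kept their direction in each of these 4 fits. Their groups did not overlap in CPM, so leaving out 1 library could hardly reverse them, and the kept direction is no test of their stability. The fold changes below are given with that range where it departs far from the full fit.

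MALAT1 fell in PSME4 KD cells. It stood at 285 and 441 CPM in PSME4 KD 1 and 2, against 848 and 529 CPM in control KD 1 and 2. Both PSME4 KD libraries were below both control KD libraries, but the libraries within each group also differed by over 1.5-fold. Its log2 fold change was −0.92 (SE 0.23, adjusted p = 0.0106) by edgeR, from 11058 counts in PSME4 KD and 15955 in control KD. The gene lies at chr11:65497738-65506516.

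NEAT1, the RNA scaffold of paraspeckles, was not called. Its levels were 165 and 357 CPM in PSME4 KD 1 and 2, against 422 and 283 CPM in control KD 1 and 2. PSME4 KD 2 lay above control KD 2, so the groups overlapped, and the log2 fold change was −0.43 (SE 0.25, adjusted p = 0.276) by edgeR. NEAT1 lies at chr11:65422798-65445540, on the same strand as MALAT1 and upstream of it. It makes a short transcript with a poly(A) tail and a long one that ends in a triple helix as MALAT1 does, and the gene counts do not separate them.

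How far both genes differed rested on single libraries. Without PSME4 KD 1 the log2 value of MALAT1 was −0.64 and that of NEAT1 was 0.023, and without PSME4 KD 2 they were −1.25 and −1.07. Of these 4 fits, only the one without PSME4 KD 2 called them, with adjusted p of 0.00396 for MALAT1 and 0.0204 for NEAT1 (edgeR, Benjamini-Hochberg). Without control KD 1 the values were −0.55 and −0.12, and without control KD 2 they were −1.22 and −0.69, with no call. After a correction for the GC content of the transcripts MALAT1 had a log2 value of −0.74 and did not pass (adjusted p = 0.0702, edgeR). With the replicate number as a block beside that correction it was at −0.72 and was called (adjusted p = 0.0138, edgeR).

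Some RNAs that have no poly(A) tail also fell. Of 28 such RNAs in a list taken as a sign of library selection, 11 were in the table and 9 were tested; 4 fell and 0 rose, 44.4% beside 10.6% of all genes tested, and the median log2 fold change of the 9 was −1.04. Their summed level was 17.2 and 32.7 CPM in PSME4 KD 1 and 2, against 89.5 and 43.9 CPM in control KD 1 and 2. The order of the libraries, PSME4 KD 1 lowest and control KD 1 highest, was that of MALAT1 in all 4 libraries. The RNAs that fell were RN7SK (−2.67, SE 0.41), RMRP (−2.43, SE 0.38), RPPH1, the RNA of RNase P (−2.30, SE 0.54), and SCARNA5 (−2.0, SE 0.64). RN7SL1, the signal recognition particle RNA, picked after its value was seen as were the others that did not pass, was at −0.12 (SE 0.38) and did not pass. SNORD17 at 0.69 (SE 0.50), SNORA73A at −0.27 (SE 0.38), SNORA73B at −1.04 (SE 0.40) and RN7SL2 at −0.63 (SE 0.28) did not pass either. What part this had in the fall of MALAT1 was not tested.

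**Figure D2:**
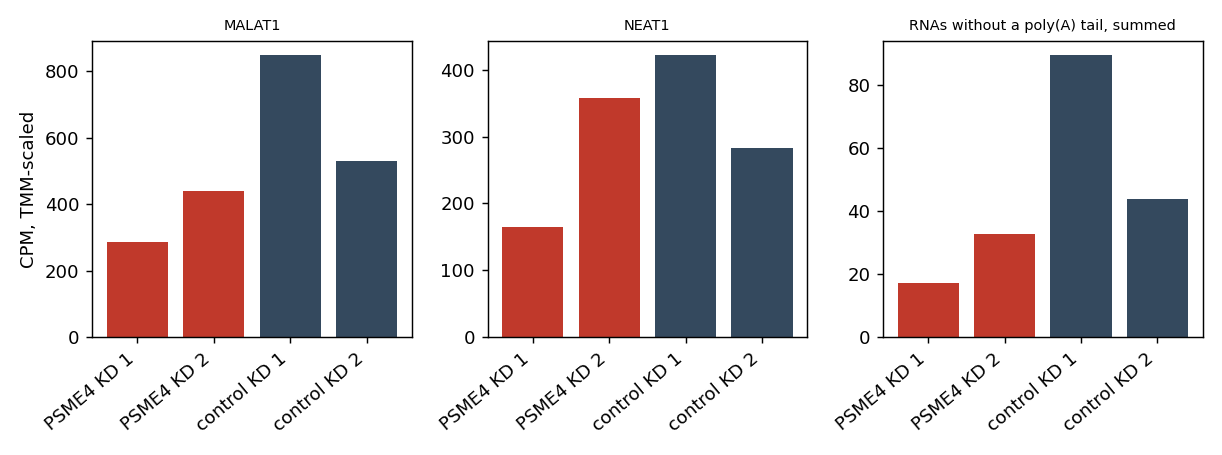
CPM in each library of MALAT1, NEAT1 and the sum of 11 RNAs without a poly(A) tail, with PSME4 KD in red and control KD in dark grey; each bar is 1 library and the axes start at 0. MALAT1 and the summed RNAs run in the same order, lowest in PSME4 KD 1 (285 and 17.2 CPM) and highest in control KD 1 (848 and 89.5 CPM), while NEAT1 is higher in PSME4 KD 2 than in control KD 2.

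Paraspeckle proteins bind NEAT1, and few of their genes passed the test. Of 35 tested paraspeckle proteins 0 rose and 4 fell, 11.4% beside 10.6% of all genes, and the median log2 fold change was −0.16. Those that fell were TAF15, an RNA-binding protein of the FET family (−0.81, SE 0.21), FAM98A (−0.69, SE 0.19), the cold-inducible RNA-binding protein RBM3 (−0.66, SE 0.19) and AHDC1 (−1.09, SE 0.36). The nuclear exosome degrades many noncoding transcripts; of 35 tested genes of the exosome, its adaptors and RNase P, 0 rose and 4 fell, with a median of −0.13. Those were the cofactor C1D (−1.20, SE 0.20), the subunits EXOSC3 (−0.83, SE 0.23) and EXOSC8 (−0.74, SE 0.20), and RBM7, which brings RNA to the exosome (−0.66, SE 0.20). C1D was at 42.6 and 39.9 CPM in PSME4 KD, against 92.7 and 97.5 CPM in control KD.

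Among LINC genes with a known neighbour or role, LINC01578 fell. RefSeq now names it CHASERR; it lies at chr15:92882843-92898747, upstream of CHD2 on the same strand, and in mice Chaserr restrains the expression of that chromatin remodeller. It stood at 51.0 and 49.7 CPM in PSME4 KD 1 and 2, against 110.1 and 84.2 CPM in control KD 1 and 2. The PSME4 KD libraries were close together and both below the control KD libraries, with a log2 fold change of −0.95 (SE 0.20, adjusted p = 0.00367) by edgeR. CHD2, whose start lies 17.5 kb downstream, had a log2 fold change of 0.015 (SE 0.20, adjusted p = 0.976). Without control KD 1 the LINC01578 value was −0.74 (adjusted p = 0.0994, edgeR). Leaving out control KD 2 instead kept the call (adjusted p = 0.0478, edgeR).

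LINC01137, now named LITATS1 in RefSeq and known as an RNA that TGF-beta induces and that counteracts TGF-beta signalling, rose in PSME4 KD cells. Its levels were 8.14 and 7.81 CPM in PSME4 KD 1 and 2, against 3.63 and 4.73 CPM in control KD 1 and 2. Neither group overlapped the other, and the log2 fold change was 0.93 (SE 0.30, adjusted p = 0.0439) by edgeR. Its start lies 137 bases from that of ZC3H12A, an RNase that degrades inflammatory mRNAs, and the genes run in opposite directions from the window shown above. ZC3H12A had a log2 fold change of 0.27 (SE 0.24, adjusted p = 0.502). The call of LINC01137 ended after the GC correction (0.70, adjusted p = 0.114, edgeR).

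LINC02657, now LASTR, a stress-induced RNA that acts on splicing through SART3, fell. It was at 0.854 and 0.459 CPM in the PSME4 KD libraries, against 2.68 and 1.81 CPM in the control KD libraries. The groups did not overlap, and the log2 fold change of −1.76 (SE 0.48, adjusted p = 0.0188) by edgeR came from 20 counts in PSME4 KD and 52 in control KD. Most of the summed count by which LINC02657 was selected thus came from control KD, the group where it was higher. LINC00632 is the gene that hosts the circular RNA CDR1as, which gene counts cannot tell from the linear transcripts. It was at 4.20 and 2.62 CPM in the PSME4 KD libraries, against 7.70 and 6.96 CPM in the control KD libraries, with no overlap, and its log2 fold change was −1.10 (SE 0.32, adjusted p = 0.0260) by edgeR. After the GC correction LINC00632 was at −0.80 and did not pass (adjusted p = 0.0875, edgeR).

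LINC00467, an RNA of chromosome 1 studied in several carcinomas, fell. It was at 9.59 and 12.3 CPM in the PSME4 KD libraries, against 22.4 and 18.2 CPM in the control KD libraries. Both PSME4 KD libraries lay below both control KD libraries, and the log2 fold change was −0.89 (SE 0.24, adjusted p = 0.0188) by edgeR. The row named LINC01279 also fell, with a log2 fold change of −0.82 (SE 0.24, adjusted p = 0.0260) by edgeR, and stood at 11.5 and 13.1 CPM in the PSME4 KD libraries, against 19.7 and 23.6 CPM in the control KD libraries. RefSeq gives that symbol as an older name of CCDC80, a secreted matrix protein gene, so this row may count transcripts of a protein-coding locus, and the position and GC content used for it are those of CCDC80. CCDC80 had a row of its own, with a log2 fold change of −0.31 (SE 0.22, adjusted p = 0.373), and shared reads cannot be told apart.

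The largest decreases were in genes with few reads. LINC01322 stood at 0.0657 and 0.525 CPM in the PSME4 KD libraries, against 1.99 and 1.29 CPM in the control KD libraries. It had 9 counts in PSME4 KD and 38 in control KD, so it reached the summed count of 40 mostly through control KD, and its log2 fold change of −2.44 (SE 0.61, adjusted p = 0.0115) by edgeR ranged over −4.43 to −1.62 with 1 library left out, the extremes being without PSME4 KD 2 and without PSME4 KD 1. LINC01914 stood at 1.58 and 1.31 CPM in the PSME4 KD libraries, against 4.24 and 5.76 CPM in the control KD libraries. Its libraries agreed more closely within groups, and the log2 fold change was −1.79 (SE 0.37, adjusted p = 0.00287) by edgeR.

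The other decreases were LINC02041, LINC00960, LINC02212 and LINC00680, with 70 to 134 counts in sum over the 4 libraries. LINC02041 was at 1.25 and 1.77 CPM in the PSME4 KD libraries, against 3.81 and 3.78 CPM in the control KD libraries. LINC00960 was at 0.920 and 0.722 CPM in the PSME4 KD libraries, against 2.86 and 1.81 CPM in the control KD libraries. In both, the groups did not overlap, and the log2 fold changes were −1.32 (SE 0.38) and −1.49 (SE 0.45). LINC02212 stood at 0.591 and 1.05 CPM in the PSME4 KD libraries, against 3.03 and 1.55 CPM in the control KD libraries. LINC00680 stood at 0.657 and 0.787 CPM in the PSME4 KD libraries, against 2.68 and 1.46 CPM in the control KD libraries. Control KD 1 was the highest library in both of these, well above control KD 2, with log2 fold changes of −1.47 (SE 0.47) and −1.51 (SE 0.48). Without control KD 1 they were −0.91 and −1.01. With all 4 libraries and no filter on low counts, LINC02212 and LINC00680 did not pass (adjusted p = 0.0510 and 0.0513, edgeR). GENCODE types LINC00680 as a transcribed pseudogene, so its reads may be shared with a related gene. With the filter, the adjusted p-values of LINC02041, LINC00960, LINC02212 and LINC00680 were 0.0253 to 0.0442 by edgeR.

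The largest increases were LINC02735 and LINC02732, which lie far apart on chromosome 11 at chr11:56848478-56878078 and chr11:110355114-110406908. LINC02735 was at 3.22 and 3.08 CPM in the PSME4 KD libraries, against 1.12 and 0.774 CPM in the control KD libraries. LINC02732 was at 2.69 and 3.48 CPM in the PSME4 KD libraries, against 1.21 and 0.688 CPM in the control KD libraries. In both genes each PSME4 KD library was well above each control KD library, and the log2 fold changes were 1.72 (SE 0.43, adjusted p = 0.0109) and 1.69 (SE 0.44, adjusted p = 0.0138) by edgeR. They rested on 96 and 94 counts in PSME4 KD, against 22 counts each in control KD.

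LINC00322, LINC01273 and LINC01061 rose by a similar amount. LINC00322 was at 4.34 and 6.69 CPM in the PSME4 KD libraries, against 1.04 and 2.49 CPM in the control KD libraries. LINC01273, which lies 18.0 kb from the start of the transcription factor gene CEBPB, was at 3.81 and 4.40 CPM in the PSME4 KD libraries, against 1.64 and 1.03 CPM in the control KD libraries. LINC01061 was at 2.89 and 3.81 CPM in the PSME4 KD libraries, against 0.952 and 1.29 CPM in the control KD libraries. In all 3 the PSME4 KD libraries were above the control KD libraries, and the log2 fold changes were 1.64 (SE 0.39), 1.61 (SE 0.39) and 1.57 (SE 0.41), with adjusted p of 0.00861, 0.00967 and 0.0156 by edgeR. Control KD 1 and 2 differed by over 2-fold in LINC00322, whose log2 value ranged from 1.14 without control KD 1 to 2.41 without control KD 2.

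LINC02313 and LINC02506 were the increases with the most reads. LINC02313 was at 20.2 and 29.8 CPM in the PSME4 KD libraries, against 10.6 and 14.4 CPM in the control KD libraries. LINC02506 was at 20.7 and 24.7 CPM in the PSME4 KD libraries, against 9.78 and 15.9 CPM in the control KD libraries. No library of one group reached the other, and the log2 fold changes were 1.00 (SE 0.25, adjusted p = 0.0111) and 0.82 (SE 0.25, adjusted p = 0.0338) by edgeR. For LINC02506 the value was 0.51 when control KD 1 was left out and 1.22 when control KD 2 was, neither past the threshold. Among the remaining increases, LINC01503, an RNA studied in squamous carcinomas, was at 3.15 and 4.46 CPM in the PSME4 KD libraries, against 1.56 and 1.63 CPM in the control KD libraries. LINC00993, which GENCODE types as a transcribed pseudogene, was at 2.76 and 4.46 CPM in the PSME4 KD libraries, against 1.30 and 1.55 CPM in the control KD libraries. These differed by 1.25 (SE 0.38) and 1.34 (SE 0.40) on the log2 scale, with adjusted p of 0.0352 and 0.0314 by edgeR.

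LINC02604 had the lowest value of the increases with 1 library left out. It stood at 5.19 and 10.6 CPM in the PSME4 KD libraries, against 4.41 and 3.27 CPM in the control KD libraries. The PSME4 KD libraries were far apart, and PSME4 KD 1 lay just above control KD 1. Its log2 fold change was 1.04 (SE 0.34, adjusted p = 0.0449) by edgeR, 0.46 without PSME4 KD 2 and 0.83 after the GC correction, neither past the threshold. LINC01503 lost its call after the GC correction as well (1.01, adjusted p = 0.0829, edgeR).

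**Figure D3:**
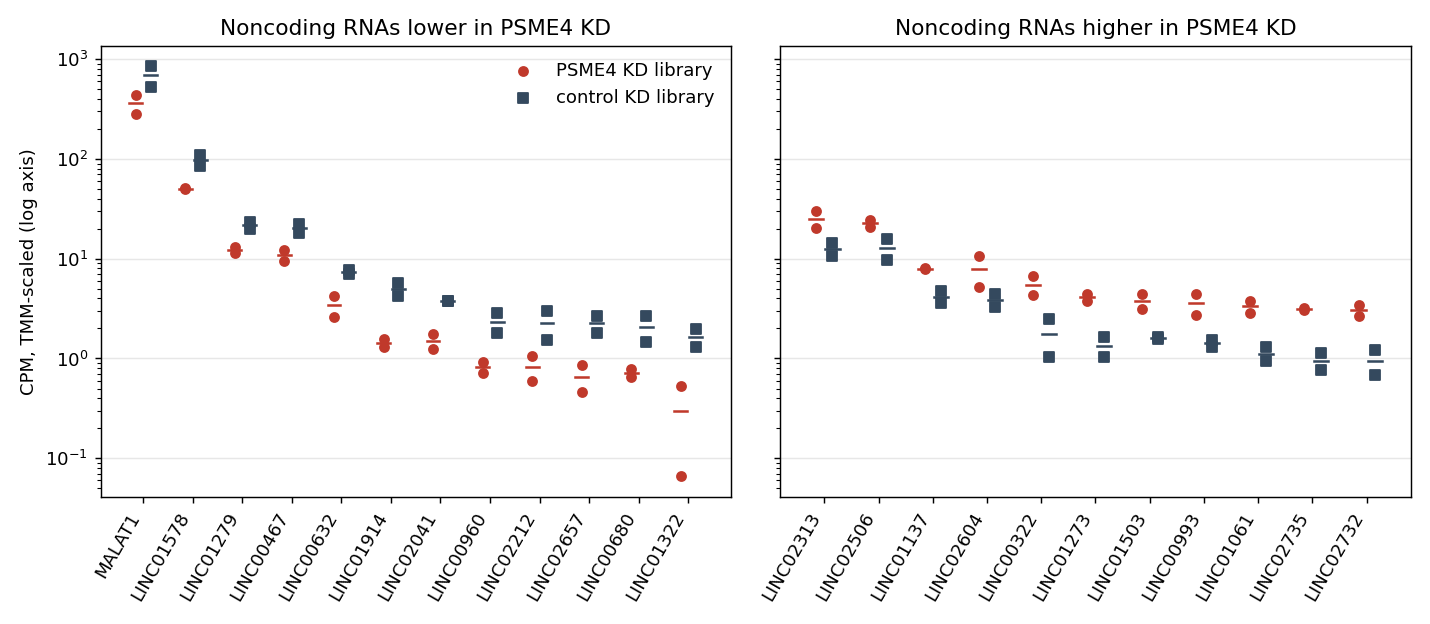
CPM (log axis) of the 12 noncoding RNAs that fell (left) and the 11 that rose (right), with each PSME4 KD library as a red circle left of each control KD library as a dark grey square and the group mean as a line. In each of the 23 genes the libraries of the groups do not overlap; levels are not scaled by length and are not to be ranked between genes.

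**Figure D4:**
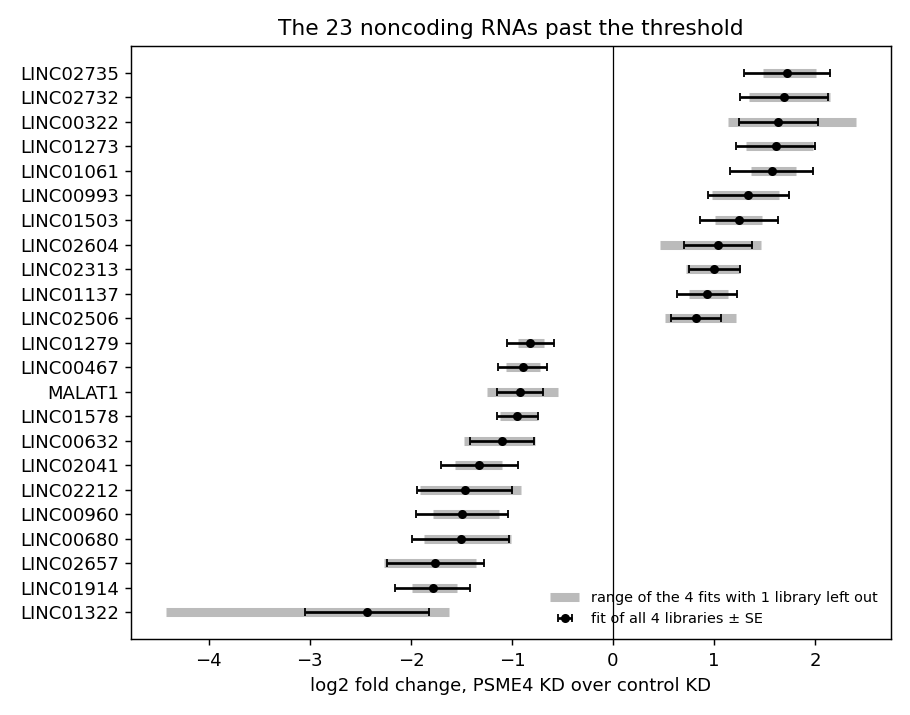
Log2 fold change of PSME4 KD over control KD of the 23 noncoding RNAs past the threshold, from the fit of all 4 libraries (black points, bars are the SE) and the range over the 4 fits with 1 library left out (grey bars). No grey bar crosses 0, as follows where the groups do not overlap, and the widest is that of LINC01322, from −4.43 to −1.62. The SE rests on a spread shared over genes.

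Several abundant or well-known RNAs of the set did not pass. Per kb of their longest GENCODE 29 transcript, the highest mean levels after MALAT1 (60.4 CPM per kb) were LINC00674 (59.2), LINC00294 (40.2), LINC02532 (39.8), LINC02582 (39.6), LINC02313 (34.0), LINC01578 (27.5) and LINC02246 (24.6). In this order MALAT1 and LINC00674 did not differ beyond the spread of MALAT1 over libraries, nor did LINC00294, LINC02532 and LINC02582, which lay within 1 CPM per kb of each other. GENCODE types LINC00674 as a transcribed pseudogene. NEAT1 came to 13.5 CPM per kb over a model of 22743 bases, most of which belongs only to the long transcript. LINC00294 was at 116 and 140.3 CPM in the PSME4 KD libraries, against 144 and 130.4 CPM in the control KD libraries, and LINC02532 at 97.3 and 100.1 CPM in the PSME4 KD libraries, against 105 and 89.9 CPM in the control KD libraries. Their groups overlapped, with log2 fold changes of −0.10 (SE 0.19) and 0.017 (SE 0.19). LINC00674, LINC02582 and LINC02246 differed by 0.21 (SE 0.21), −0.24 (SE 0.21) and 0.21 (SE 0.22), and did not pass.

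Some of the RNAs that did not pass are well known in lung cells; they were picked after their values were seen. LINC00473 is a target of the cAMP-responsive factor CREB and is high in lung cancers that lack the kinase LKB1, as A549 does. It was at 51.1 and 50.1 CPM in the PSME4 KD libraries, against 26.6 and 39.0 CPM in the control KD libraries. The PSME4 KD libraries were both above the control KD libraries, but the log2 fold change of 0.63 (SE 0.22, adjusted p = 0.0603) by edgeR did not pass, and its RefSeq start lies 13 bases from that of PDE10A, with which it overlaps. It was called with library size as the only scaling (0.67, adjusted p = 0.0333, edgeR), with 50 or more counts required in 2 libraries (0.63, adjusted p = 0.0376, edgeR) and with the replicate block (0.65, adjusted p = 0.0481, edgeR). LINC00261, which lies beside the endoderm factor FOXA2, was at 10.5 and 12.5 CPM in the PSME4 KD libraries, against 6.23 and 9.03 CPM in the control KD libraries, a log2 value of 0.59 (SE 0.27, adjusted p = 0.160) by edgeR. LINC00707, LINC01234 and LINC00673 did not pass either. LINC00707 was at −0.52 (SE 0.21), LINC01234 at 0.30 (SE 0.22) and LINC00673 at 0.064 (SE 0.22) on the log2 scale.

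The libraries of 1 group differed for some RNAs as much as those of different groups. Among those with a mean of at least 5 CPM, control KD 1 and 2 were farthest apart in LINC01589, LINC00472 and LINC02482. LINC01589 was at 9.00 and 5.91 CPM in the PSME4 KD libraries, against 8.74 and 4.56 CPM in the control KD libraries, and the PSME4 KD libraries also differed. LINC00472 was at 5.98 and 6.23 CPM in the PSME4 KD libraries, against 3.81 and 6.71 CPM in the control KD libraries, and LINC02482 at 9.33 and 8.46 CPM in the PSME4 KD libraries, against 11.4 and 6.88 CPM in the control KD libraries. In all 3 genes the PSME4 KD and control KD values overlapped, and the log2 fold changes of 0.16 (SE 0.32), 0.22 (SE 0.31) and −0.040 (SE 0.28) did not pass.

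The genes past the threshold lay on 15 chromosomes, and most started over 50 kb from the nearest tested protein-coding start. Of the 11 noncoding RNAs tested on chromosome 3, 4 fell and 0 rose, where 6.69% of all genes tested on it fell. That chromosome was picked after its values were seen, and LINC01279 is placed there by the position of CCDC80. The median distance from the start of a noncoding RNA to the nearest tested protein-coding start was 74.4 kb over the set, 132 kb for those that rose and 91.9 kb for those that fell. Of the 23 genes past the threshold, 13 had a nearest protein-coding gene whose fold change had the same sign. The same share over the whole set was not counted. For LINC01279, which is among the 13, the nearest gene was CCDC80, whose own position was used for it. The nearest gene also passed for 3 of the 23, where 10.6% of all genes tested passed. LINC01914 and PKDCC, a secreted kinase gene 114 kb away on the opposite strand, both fell, PKDCC by 0.83 on the log2 scale (SE 0.26, adjusted p = 0.0372, edgeR). LINC02732 and RDX, which encodes the cytoskeletal linker radixin, both rose, RDX by 0.67 (SE 0.20, adjusted p = 0.0292, edgeR). LINC02506 rose while PCDH7, a protocadherin gene 1277 kb away, fell (−2.44, SE 0.56, adjusted p = 0.00608, edgeR).

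The fold changes of the noncoding RNAs were also set beside those of their nearest protein-coding genes, as a description. Across 173 pairs, which share libraries and are not independent, Spearman's rho was 0.13, and it was 0.11 over the 166 pairs that do not overlap. Of the 10 RNAs that start within 2 kb of a protein-coding gene and run away from it, 1 rose, LINC01137, and 0 fell by edgeR, so 1 of 10 was called beside 10.6% of all genes tested. An unadjusted p under 0.05 was found for 2 of the 10, beside 26.2% of all genes. Their median log2 fold change was −0.30, and Spearman's rho with their neighbours was 0.42, over only 10 pairs. Both PSME4 KD libraries lay above both control KD libraries for 1 of the 10 and below them for 5. Of all genes tested, 26.7% and 28.4% did so. LINC01184, now SLC12A2-DT, is 1 of the 10 and was picked after its value was seen. It was at 40.3 and 38.6 CPM in the PSME4 KD libraries, against 44.0 and 40.2 CPM in the control KD libraries. Its log2 value was −0.093 (SE 0.20).

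Base composition is given because the libraries differed in it. The median GC content was 52.7% over the 10 that rose and have a GENCODE transcript, 42.8% over the 12 that fell and 46.1% over those that did not pass, with ranges of 38.9% to 61.8%, 36.0% to 49.8% and 34.5% to 65.2%. Over the 170 RNAs with a value, Spearman's rho of fold change with GC content was 0.14, beside 0.40 over 13210 genes tested. These points share libraries, and over all genes the ratio of control KD 2 to control KD 1 had a rho of −0.49 with GC content, so the libraries of 1 group also differ in this way. Over 169 of the noncoding RNAs, the ratio of control KD 1 to control KD 2 had a rho of 0.16 with GC content, beside the 0.14 of their fold change. With each library corrected for GC content, 9 noncoding RNAs were higher and 12 lower, and 17 of the 23 calls remained. Over all genes that fit gave 1210 calls, against 1426 without the correction. LINC01061 has no GENCODE transcript and was not in that fit, and the other calls that ended were those of MALAT1, LINC00632, LINC01137, LINC01503 and LINC02604.

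**Figure D5:**
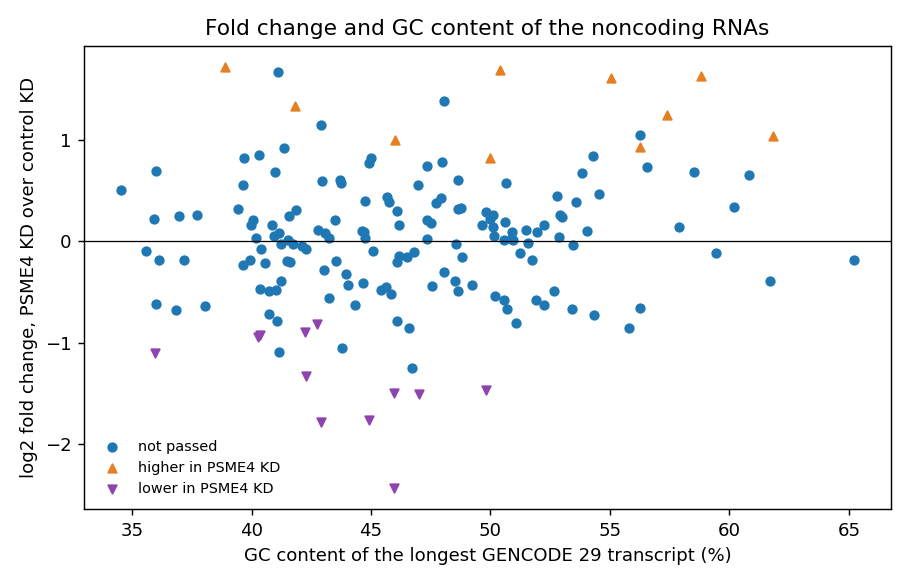
Log2 fold change of PSME4 KD over control KD against the GC content (%) of the longest GENCODE 29 transcript for the 170 noncoding RNAs that were tested and have one. Those that rose (orange, median 52.7%) extend to higher GC content than those that fell (purple, 36.0% to 49.8%), and the blue points that did not pass cover 34.5% to 65.2%.

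Long noncoding RNAs with a name of their own, outside the LINC symbols, were counted for comparison. Of 52 tested genes in that list 1 rose and 10 fell, 21.2% beside 10.6% of all genes tested, with a median log2 fold change of −0.13. The list holds many hosts of small nucleolar RNAs. SNHG5, such a host, was at 259 and 168 CPM in the PSME4 KD libraries, against 521 and 396 CPM in the control KD libraries (−1.10, SE 0.21). CRNDE (−1.08, SE 0.21), MIR17HG, the host of the miR-17 to 92 cluster (−1.46, SE 0.32), and GAS5, the growth arrest-specific host gene (−0.80, SE 0.20), fell as well.

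The authors' deposited table gave the same direction for the genes it called. It was made from the same 4 libraries, and its 8 calls in the set were those of the DESeq2 fit above. The shared direction is thus no separate support. At an adjusted p under 0.05 the authors' deposited table held 3 of the 177 noncoding RNAs as higher in PSME4 KD (LINC02313, LINC00322 and LINC01273). It held 5 of the 177 as lower (MALAT1, LINC01578, LINC01914, LINC00467 and LINC01279). Of all its 15037 genes, 418 passed as higher and 554 as lower. The share of the set was thus below that of all genes there, unlike by edgeR. The log2 fold change in the authors' deposited table runs control KD over PSME4 KD and was 0.92 for MALAT1 and 0.94 for LINC01578. By the further adjusted p of the authors' deposited table, 0 noncoding RNAs and 98 genes in all passed.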

How the data were processed

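RNA from 4 A549 libraries was selected on poly(A) beads and prepared with a Lexogen SENSE kit, per the labels' protocols. The submitters' processing notes name build hg38 and the tools cutadapt, STAR and DESeq2. Their versions, the read counter, its strand setting and its gene models are not stated in the labels. The authors deposited raw counts per gene, and, per the file headers, signal values (counts divided by a size factor), log2 values (a regularised log), and their own log2 fold change and p-values. Tests used the counts; the signal and regularised log columns were not used here.

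R 4.3.3 with edgeR 4.0.16 fitted glmQLFit and glmQLFTest to all 4 libraries, with TMM and filterByExpr, which kept 13497 of 15037 genes. The model held the group alone, leaving 2 residual degrees of freedom per gene, and the fit then shared the spread over genes. The test was checked on simulated counts. The SE was taken as the size of the log2 fold change over the root of F, and the biological coefficient of variation was 15.3%. Alternatives used DESeq2 1.42.0, limma 3.58.1, other scalings and filters, the replicate number as a block, libraries left out and a lowess correction (span 0.4) for GC content, which 97.9% of the genes tested and 97.2% of the set had.

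Positions, promoters and neighbours are from RefSeq on GRCh38.p14; 161 of the 177 genes matched by current symbol and 16 by an older one. Transcripts are from GENCODE 29. Gene neighbours were taken among tested protein-coding genes, by the distance between starts. Reads of overlapping genes may be shared, which touches 21 of the 177 genes. The genes, lists and motifs were chosen with earlier results of these data known. The named genes are MALAT1 and NEAT1, those past the threshold, the 8 with the highest CPM per kb, the 3 that differ most between control KD libraries, those at the summed count of 40, the nearest genes, and up to 4 genes of each list; others, LINC01876 and the genes named as lost or exceptional included, were chosen after their values were seen. Not every nearest gene is reported here. Mitochondrial genes taken as a quality list had no row.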

Additional observations from a re-analysis of the deposited data

How the results depend on the processing

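The counts of noncoding RNAs that rose and fell were 11 and 12. They were 12 and 12 with DESeq2's size factors and 15 and 12 with library size only. With no filter they were 12 and 10, by limma voom 11 and 10, and with the replicate number as a block 16 and 12. Over all genes these settings gave 1490, 1617, 1448, 1394 and 1554 calls in that order, against 1426. Keeping only genes with 50 or more counts in 2 libraries gave 8 and 5, with 79 of the set left to test. That filter gave 1557 calls over all genes. DESeq2 gave 3 and 5, and 1101 genes in all, where 88 of the set had an adjusted p. A summed count of at least 100 left 116 genes with 11 and 7. A threshold of 0.10 gave 17 and 15, and 2240 genes in all against 1426. The GC correction gave 9 and 12, with 1210 genes in all, and 15 and 14 together with the replicate block, with 1733 in all. The replicate numbers were not shown to pair the samples, since their deviations from the group means had a correlation of −0.018. With 1 library left out, 0 to 0 noncoding RNAs were higher, 0 to 3 lower, and 43 to 281 genes were called in all. Each such fit has 3 libraries, and the lone library of a group is assumed to vary like the others.

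Of the log2 fold changes of 42 named genes under these alternatives, 380 kept direction and call, 109 kept direction and lost the call, 8 gained it and 13 changed sign; another 13 had no adjusted p from DESeq2. The gains were in NEAT1, LINC00473, LINC00261 (with the GC correction and replicate block) and LINC01876 (with the block, with both, and by limma voom). The sign changes were all in genes that had not passed. LINC02482 was at 0.00097 with library size only and 0.0022 by limma voom, and LINC01184 at 0.23 with the GC correction and 0.24 with the block added. With 1 library left out NEAT1 lay between −1.07 and 0.023, LINC00294 between −0.21 and 0.032, LINC02532 between −0.085 and 0.13, LINC01589 between −0.22 and 0.71, LINC00472 between −0.14 and 0.69, LINC02482 between −0.35 and 0.37 and LINC00673 between −0.061 and 0.21. Apart from fewer samples or genes in a fit, the causes were not tested. The median level of the set was 2.60 CPM, and its median SE on the log2 scale was 0.38.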

Other observations

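The 175 LINC genes of the set, without MALAT1 and NEAT1, summed to 1423 and 1620 CPM in PSME4 KD 1 and 2, against 1538 and 1496 CPM in control KD 1 and 2, so the groups overlapped in their total. MALAT1 and NEAT1 took 35.4% of all CPM of the set.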
